A study of Mus musculus with 2 samples.

Results

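Of 5761 cells in a culture of mouse embryonic fibroblasts (MEFs), 220 held no UMI of Col1a1, which encodes the alpha-1 chain of type I collagen and lies on chromosome 11 from 94936224 to 94953042 in GRCm38. They made up 3.82% of the cells (exact binomial 95% interval 3.34 to 4.35%). A UMI is a molecular barcode, and UMI counts are the numbers of captured transcripts. Cells were taken from the MEF library with at least 5000 UMIs, at least 500 genes and at most 20% of UMIs from mitochondrially encoded genes. The sets were chosen by their Col1a1 UMIs alone. The 220 cells were set against the 5019 cells (87.1%) with 10 or more Col1a1 UMIs, called the comparison cells here. The 522 cells between them, with 1 to 9 UMIs, are given as neighbours of the threshold. Of the barcodes kept in the 2 libraries 15 occurred in both, and none of these was among the 220. The whole series held 15504 cells under the same filters.

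The study profiled the conversion of fibroblasts into myogenic stem and progenitor cells by droplet single-cell RNA sequencing, with 1 library of MEFs and 1 of induced myogenic progenitor cells (iMPCs). Both carried the genotype Tg:Pax7-nGFP/C57BL6;DBA2, in which a nuclear green fluorescent protein is tied to Pax7, a gene of muscle stem cells. The MEFs were kept in MEF medium according to the treatment label, although the protocol text of both libraries is that of the iMPCs, and the iMPCs were made with MyoD and a factor combination labelled F/R/C. All 220 cells came from 1 library, so they are not replicates of a condition, no p-value is given, and every interval covers counting error only.

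Fibroblasts build and secrete the extracellular matrix, and type I collagen is among their most abundant products. A MEF culture is prepared from dissociated embryos and can carry other lineages, such as blood vessel endothelium, blood cells, surface epithelium, neurons and glia. Endothelial cells carry the adhesion molecule Pecam1, immune cells the phosphatase Ptprc (CD45) and epithelial cells the adhesion molecule Epcam. A cell without Col1a1 may thus be looked at for the genes of these lineages and for the remaining fibroblast genes.

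None of the 3 defining lineage genes had a UMI in the 220 cells. Pecam1 (chromosome 11, 106654217 to 106750628) had 0 UMIs there and was found in 14 comparison cells. Ptprc (chromosome 1, 138062861 to 138175708) had 0 UMIs, against 1 comparison cell with a UMI. Epcam (chromosome 17, 87635979 to 87651129) had 0 UMIs, against 19 comparison cells. Cdh5, the cadherin of endothelial junctions, Sox10, the glial and neural crest factor, Elavl3, the neuronal RNA-binding protein, and Cdh1, the epithelial cadherin, were also at 0 in the 220 cells. In the comparison cells these 7 genes reached at most 2 UMIs in any cell. A count of 0 among 220 cells allows a share of up to 1.36% of cells with a UMI when the limit is put at 3 counts, and the exact binomial interval ends at 1.66%.

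No cell without Col1a1 met the criterion for any of 21 non-fibroblast identities. A cell held an identity when at least 3 markers of its list had a UMI and together reached 10 UMIs, and only markers found in fewer than 5% of the comparison cells were counted. The number was 0 of 220 cells, 0 of the 522 neighbours and 0 of the 5019 comparison cells. The number stayed at 0 of the 220 cells with 2 markers, with no minimum sum of UMIs and at a fixed depth of 5000 UMIs per cell. As a measure of what the criterion can find, it gave the skeletal muscle identity to 9236 of 9743 iMPC cells (94.8%). Among iMPC cells of 5000 to 10000 UMIs, the depth of most of the 220 cells, it did so for 581 of 709 (81.9%). These cells were matched by UMIs and not by gene number, which was low in the 220 cells as described below. The 81.9% therefore need not hold for the 220 cells. The criterion also gave the smooth muscle and pericyte identity to 3205 iMPC cells (32.9%) and to 95 of the 709 (13.4%). The markers found most often for it were Des and Ndufa4l2. Over all iMPC cells it further gave 95 mesothelial, 26 neuron, 9 epithelial and 2 immune identities. The Schwann and glial and the osteoblast identity went to 1 cell each. None of these other identities was among the 709. The criterion was not tried on known endothelial, immune, epithelial or neural cells, which neither library was labelled to hold.

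The counting markers of the vascular and blood lists were at 0 or nearly so in the cells without Col1a1. All 15 counting endothelial markers and all 6 counting lymphatic endothelial markers had 0 UMIs. The counting mast cell, granulocyte, and erythroid and megakaryocyte markers were likewise at 0. Listed markers found in 5% or more of the comparison cells did not count, and some had UMIs. In groups 1 to 4 described below, Egfl7 of the endothelial list was found in 3, 13, 6 and 2 cells. Cd34 of that list was found in 0, 15, 1 and 3 cells and Ecscr in 4, 4, 3 and 0. Flt1 was found in 0, 6, 0 and 0 and Ptprb in 0, 2, 0 and 0. Of the lymphatic list, Flt4 was found in 0, 9, 0 and 0 cells and Nrp2 in 0, 0, 0 and 2. Il1rl1 of the mast cell list was found in 4, 44, 11 and 5 cells of these groups, and Gata2 in 1, 0, 0 and 0. Ppbp of the megakaryocyte list was found in 3, 9, 0 and 0, and Itga2b in 0, 1, 0 and 0. Cd68 of the macrophage list was found in 0, 7, 1 and 0. No excess over the comparison cells is claimed for these markers. Among 16 immune markers 15 were at 0, and the remaining gene, the leukocyte tetraspanin Cd53, had 2 UMIs. Among 17 counting macrophage markers 16 were at 0, with 1 UMI of the endotoxin co-receptor Cd14. Among 12 lymphocyte markers 10 were at 0, with 3 UMIs of the T cell receptor segment Trbc2 and 1 of the immunoglobulin chain Ighm in 3 cells. After every cell was thinned to 5000 UMIs, 0.455% of the cells without Col1a1 held a UMI of any immune marker (0.0115 to 2.51%), against 1.69% of the comparison cells (1.35 to 2.09%). At full depth these shares were 0.909% and 6.54%. For the counting endothelial markers the thinned shares were 0 (0 to 1.66%) and 1.53% (1.21 to 1.91%). The intervals of both pairs overlap.

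**Figure D1:**
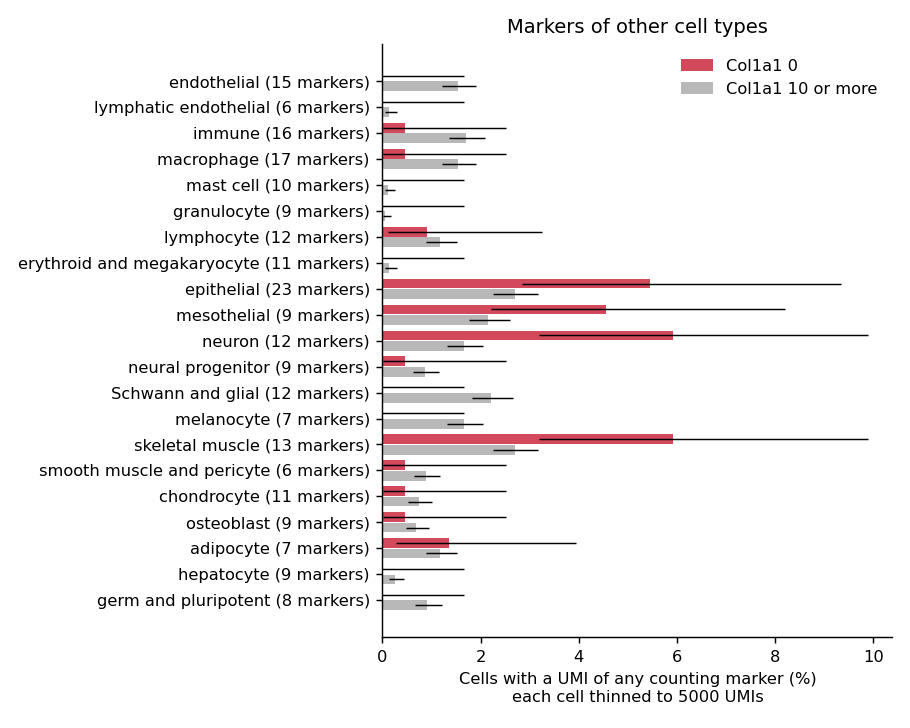
Share of cells with a UMI of any counting marker of each of 21 non-fibroblast lists (x axis, percent of cells; every cell thinned to 5000 UMIs), for the 220 cells without Col1a1 (red) and the 5019 comparison cells (grey), with exact binomial 95% intervals as lines. The red bar is absent for the endothelial list and reaches 5.91% for the neuron and skeletal muscle lists, from scattered single markers that met no identity. Counting markers were chosen as rare in the comparison cells, which holds the grey bars down.

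The counting epithelial and neuronal markers were found as scattered UMIs of a few genes. Among 23 counting epithelial markers 19 were at 0, and they summed to 19 UMIs in 14 cells (6.36%), with at most 2 markers and 3 UMIs in a cell. Krt19, a keratin of simple epithelia, gave 13 of these UMIs in 10 cells. Krt7, another simple keratin, had 3 UMIs, the membrane protease St14 had 2 and the keratin Krt8 had 1. Krt18, a listed keratin found in 5% or more of the comparison cells, was not counted. It had UMIs in 11, 9, 6 and 2 cells of groups 1 to 4 described below. At 5000 UMIs per cell 5.45% of the cells without Col1a1 held an epithelial marker (2.85 to 9.33%), against 2.69% of the comparison cells (2.26 to 3.18%). The intervals of this pair overlap, and at full depth the shares were 6.36% and 9.80%. The neighbours stood at 4.79% at 5000 UMIs per cell (3.12 to 6.99%). The counting markers were chosen as rare in the comparison cells only, which holds the share of the comparison cells down.

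Among 12 counting neuron markers 8 were at 0, and the list summed to 20 UMIs in 15 cells (6.82%). Nefl and Nefm, the light and medium neurofilament chains, held 14 and 4 of these UMIs, and no cell had more than 2 of the markers or more than 2 UMIs. At 5000 UMIs per cell the share with a neuron marker was 5.91% (3.18 to 9.89%), above the 1.65% of the comparison cells (1.32 to 2.05%). The intervals do not overlap, while the neuronal RNA-binding proteins Elavl3 and Elavl4 and the migration protein Dcx were at 0. At full depth, where the comparison cells are read more deeply, the shares were 6.82% and 6.30%. Stmn2, a neuronal tubulin-binding protein found in 5.64% of the comparison cells and so not counted, had 79 UMIs in 12 of the cells, with 27 in a single cell. Gap43 and Tubb3 of the neuron list were not counted for the same reason. Gap43 was found in 24, 38, 26 and 2 cells of groups 1 to 4 described below, and Tubb3 in 0, 0, 3 and 1. Both were found in 5% or more of the comparison cells, and no excess over that level is claimed. Among 9 counting neural progenitor markers 8 were at 0, with 2 UMIs of the fatty acid carrier Fabp7 in 1 cell. All 12 counting Schwann cell and glial markers were at 0, against a thinned share of 2.21% in the comparison cells.

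Muscle, mesothelial and fat cell markers were also sparse. Among 13 counting skeletal muscle markers 8 were at 0. Of their 19 UMIs 13 were of Mylpf, a fast muscle myosin light chain, at 1 UMI in each of 13 cells. The thinned share with a counting muscle marker was 5.91% (3.18 to 9.89%), against 2.69% in the comparison cells (2.26 to 3.18%). The comparison share is again held down by the choice of markers rare in those cells. In the neighbours it was 3.64% (2.21 to 5.63%). At full depth 18 of 220 cells held a muscle marker against 551 of 5019. The myogenic factor Myod1 had 1 UMI, and Pax7, Myf5 and Myog had 0. The counting mesothelial markers share Krt19 with the epithelial list and had 1 further UMI, of Msln. Fabp4, a fatty acid carrier of adipocytes, had 33 UMIs in 3 cells, 17 of them in a single cell, with Adipoq, Plin1 and Pparg at 0. Fabp4 was thus carried by few cells at more than 1 UMI each, without the other counting markers of its list. Lpl of the fat cell list was not counted and was found in 4, 8, 4 and 0 cells of groups 1 to 4 described below. Bnc1 of the mesothelial list, also not counted, was found in 0, 0, 0 and 2. Single UMIs can come from free RNA as well as from the cell, and these sources were not told apart.

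What set the 220 cells apart first was the number of different genes in them. They had a median of 7254 UMIs (5004 to 28389) and 1358.5 genes (684 to 3740), while the comparison cells had 20731 UMIs (5104 to 60333) and 4419 genes. With every cell thinned to 5000 UMIs, the median was 1093.5 genes in the cells without Col1a1 (quartiles 960 and 1256.25) and 1954 in the comparison cells (1881 and 2024). Of the 220 cells, 207 (94.1%) lay under 1759 genes, the 5th percentile of the comparison cells, and 51 lay below the lowest comparison cell. Restricted to cells of 5000 to 10000 UMIs before thinning, the medians were 1084.5 genes in 174 cells without Col1a1 and 1997 genes in 261 comparison cells. Fewer genes at an equal number of UMIs was therefore also measured where depths were alike.

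The neighbours of the threshold divided between these levels. At 1 Col1a1 UMI the median thinned gene number was 1134.5 (80 cells), at 2 UMIs 1361.5 (60 cells), at 3 UMIs 1863 (55 cells) and at 9 UMIs 1914.5 (74 cells). Cells just inside the comparison set, with 10 UMIs, had 1956 (69 cells). Of all MEF cells, 444 had 1653 thinned genes or fewer, the highest number in the low-gene body of the cells without Col1a1. Among these 444 cells 207 had no Col1a1 (46.6%), 164 had 1 to 9 UMIs and 73 had 10 or more. Such cells were 31.4% of the neighbours and 1.45% of the comparison cells. The cells without Col1a1 were thus 207 of a wider set of low-gene cells that the rule cuts through.

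**Figure D2:**
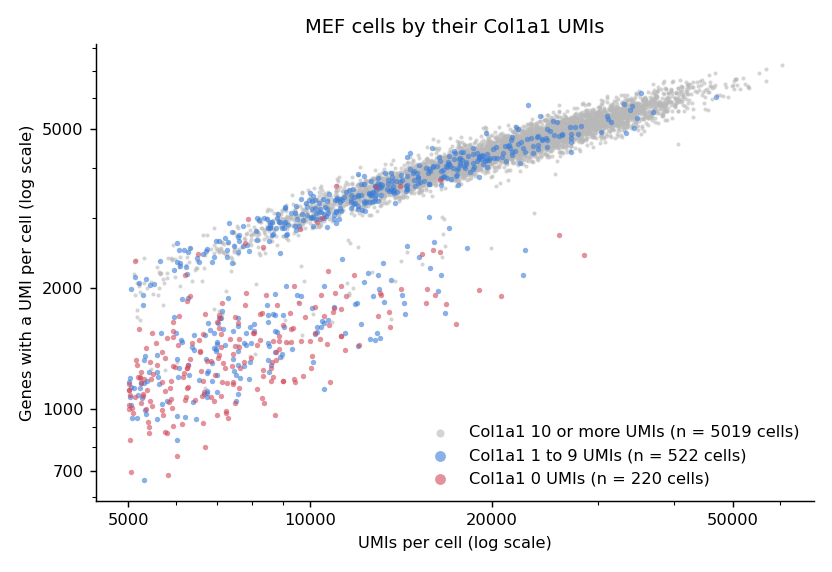
Genes with a UMI (y axis, log scale) against UMIs (x axis, log scale) for each of 5761 MEF cells, coloured by Col1a1 UMIs. Most of the 220 cells without Col1a1 (red) and part of the 522 cells with 1 to 9 UMIs (blue) form a lower band, apart from the upper band of the comparison cells (grey).

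The depth of the 220 cells was set against the level of Col1a1. In CPM, a gene's UMIs scaled to a fixed total so that sets of different depth can be compared, Col1a1 was at 2440 in the summed comparison cells. At that level the 220 cells, with 1817220 UMIs in sum, would have held 4435 Col1a1 UMIs, and a cell of median depth 17.7. A floor of 3 counts lies at 1.65 CPM and the exact upper limit of 0 UMIs at 2.03 CPM, a description only, because Col1a1 chose the cells.

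Ribosomal protein genes took a larger part of the UMIs and mitochondrial genes a more variable one. Cytosolic ribosomal protein genes made up 33.8% of the summed UMIs of the cells without Col1a1, 24.9% in the neighbours and 21.4% in the comparison cells. Mitochondrial UMIs had a median of 4.34% per cell and ran from 0.0349 to 15.4%, against a median of 5.94% in the comparison cells. Of the 220 cells, 38 (17.3%) had less than 1% mitochondrial UMIs, which 9 neighbours (1.72%) and 0 comparison cells had. None of the 220 cells was among the 329 MEF cells with the highest Scrublet doublet scores, while 326 of those were comparison cells (6.50% of the comparison cells). Among comparison cells of 5000 to 10000 UMIs, the depth of most of the 220 cells, 2 of 261 (0.766%) had such scores. The part of gene number, depth, mitochondrial share and ribosomal protein share in the values that follow was not tested.

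The remaining fibrillar and microfibril collagens were low together with Col1a1. Ratios are given as log2 of the CPM in the cells without Col1a1 over that in the comparison cells, over the 2834 genes that reached 50 CPM in either set. All 9 collagen genes past that level were lower by 2-fold or more, with a median of -3.70, where 43.6% of all 2834 genes were lower by 2-fold or more and the median of all genes was -0.76. Col1a2, the partner chain of type I collagen (chromosome 6, 4504814 to 4541544), was at 122 CPM against 2214, a log2 ratio of -4.18 (-4.38 to -3.99). It was found in 83 of the 220 cells, and its thinned level had a median of 0 UMIs and a highest value of 6, so that a number of cells without Col1a1 still held its partner. Col3a1, the chain of type III collagen, was at 41.3 CPM against 749, also at -4.18 (-4.53 to -3.86). Col6a1 of the beaded microfibrils stood at -2.35.

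Counted per cell at 5000 UMIs, 87 of the 220 cells (39.5%) held none of 12 collagen genes other than Col1a1, and the median cell held 1 (0 to 5). The neighbours had a median of 4, with 17 cells at none, and the comparison cells a median of 7, with 0 cells at none. At full depth, 65 of the 220 cells (29.5%) held none of the 12. Since Col1a1 and these collagens are read in the same cells, their joint low level is a description and not a second line of evidence.

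Genes that modify and cross-link collagen were lower by a smaller ratio. Of 11 such genes 8 were lower by 2-fold or more, with a median of -1.59. Over all 2834 genes the share was 43.6% and the median -0.76. The lysyl oxidase Lox, which cross-links collagen outside the cell, stood at -2.62 (-2.94 to -2.32), and the collagen chaperone Serpinh1 at -1.73 (-1.83 to -1.62). The prolyl isomerase Ppib, a helper of collagen folding, stood at -0.44, above the median of all genes. Among other matrix genes 12 of 13 were lower by 2-fold or more, with a median of -1.84. The adhesive glycoprotein Fn1 was at 288 CPM against 1767 (-2.62), Thbs1, a platelet and matrix glycoprotein, at 144 against 1983 (-3.79), and the periostin gene Postn at 10.5 against 167. Sparc, which binds collagen, was at 841 CPM against 3169 (-1.91) and was still found in 176 of the 220 cells. Its thinned level had a median of 3 UMIs against 15 in the comparison cells.

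**Figure D3:**
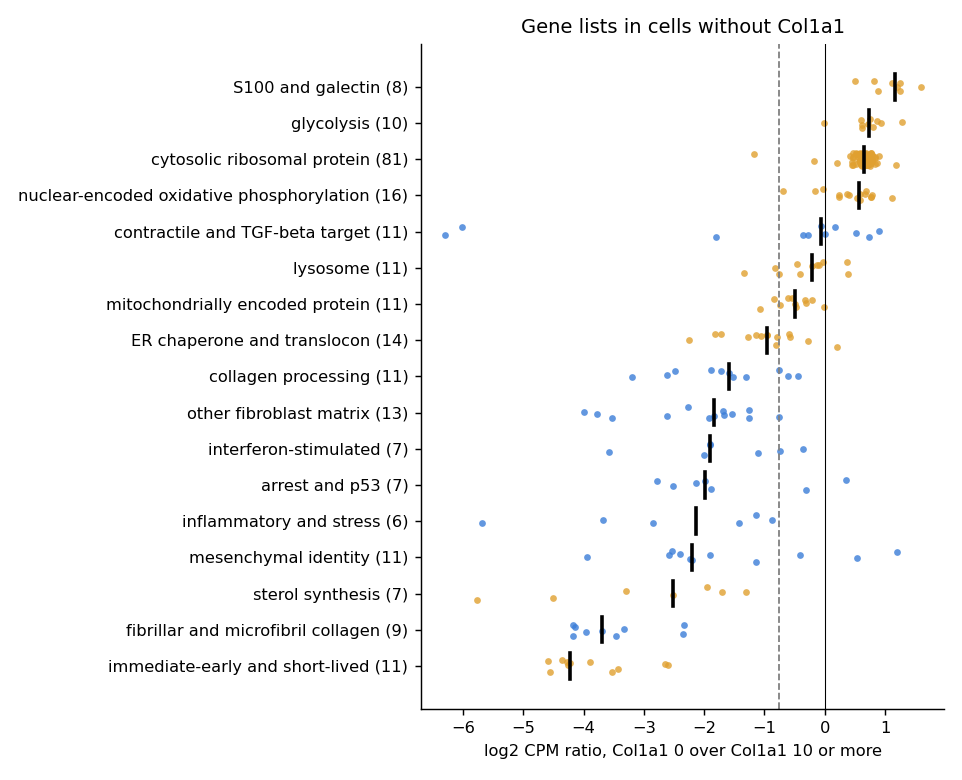
Log2 CPM ratio of cells without Col1a1 over comparison cells (x axis) for each gene past 50 CPM in 17 of the 18 gene lists (number of genes in brackets), with the list median as a black bar and the median of all genes, -0.76, as a dashed line. Blue lists were written with the design and orange lists were added after values were seen. Collagens centre at -3.70 and S100 and galectin genes at 1.16.

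Mesenchymal genes were divided between transcription factors and receptors on one side and abundant structural genes on the other. Of 11 mesenchymal identity genes 8 were lower by 2-fold or more and 1 was higher. Over all 2834 genes these shares were 43.6% and 0.741%. The receptor Pdgfra stood at -2.53, the limb and craniofacial mesenchyme factor Prrx1 at -2.23, Twist2 at -2.59 and Snai2, a factor of epithelial to mesenchymal transition, at -3.95. Thy1, a surface glycoprotein of fibroblasts, was at 540 CPM against 717 (-0.41) and found in 173 cells. Vim, the intermediate filament of mesenchymal cells, was at 5447 CPM against 3773 (0.53) and found in all 220 cells. Thinned, Vim ran from 4 to 57 UMIs with a median of 26, against a median of 18 in the comparison cells. The list also holds S100a6, described with the S100 genes, and S100a6 and Vim were found in every one of the 220 cells after thinning. At 5000 UMIs the median cell held 3 of the 20 mesenchymal genes, these included, against 7 in the comparison cells. Crabp1, a retinoic acid carrier outside these lists, had a thinned median of 24 UMIs against 13 and was chosen after its values were seen.

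Contractile genes were near their level in the comparison cells, with a list median of -0.07, while 2 matricellular targets of stretch and TGF-beta signalling were among the lowest of all genes. Acta2, the smooth muscle actin of activated fibroblasts, was at 7078 CPM against 6305 (0.17), Tagln at 6062 against 3657 (0.73) and Tpm2 at 2024 against 1089 (0.89). Of the list's 11 genes, 3 were lower by 2-fold or more and 0 were higher. Over all 2834 genes these shares were 43.6% and 0.741%. The list median was positive against the neighbours (1.44) and among cells of 5000 to 10000 UMIs (0.20). It was at 0.06 with a total that left out mitochondrial and ribosomal protein genes, which raises the ratio of every gene. Because Acta2, Tagln and Cnn1 are common in the comparison cells, they did not count towards a smooth muscle identity. When all listed markers were counted, 104 of the 220 cells met that list, and 77.6% of the comparison cells met at least 1 of the lists.

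Ccn1, a secreted matricellular protein (chromosome 3, 145646976 to 145649981), had 7 UMIs in 7 of the 220 cells, 3.85 CPM against 251 (-6.02, interval -7.34 to -4.98). Ccn2, its close relative (chromosome 10, 24595442 to 24598683), had 2 UMIs, 1.10 CPM against 87.0 (-6.31, interval -9.35 to -4.45). Both genes were thus close to absent, and the size of the ratio rests on few UMIs. The lowest gene after Col1a1 was Cdc42ep3, an effector of the GTPase Cdc42, with 1 UMI and a log2 ratio of -6.86 (-12.16 to -4.38), and its relative Cdc42ep2 stood at -5.20. Others of the 10 lowest were the microfibril gene Fbn2 (-6.11), the sterol enzyme Sqle (-5.76), the prostaglandin synthase Ptgs2 (-5.69), the vasoactive peptide Adm (-5.56) and Gm38211 (-5.53). Each of these 5 had between 2 and 5 UMIs in the 220 cells. All 10 were also low where both sets had 5000 to 10000 UMIs, from -4.86 to -6.49 apart from Col1a1.

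Immediate-early genes, which are switched on within minutes of a stimulus and whose transcripts turn over fast, had the lowest median of the 18 lists. That list and the sterol synthesis list were written after values were seen, so the rank is a description only. All 11 immediate-early genes past 50 CPM were lower by 2-fold or more, with a median of -4.23. Of all 2834 genes 43.6% were lower by 2-fold or more, and the median of all genes was -0.76. The growth response factor Egr1 was not past 50 CPM and had 4 UMIs in 2 cells. The AP-1 subunit Jun stood at -2.66, with its 20 UMIs in 9 cells. All 7 sterol synthesis genes, which supply cholesterol, were lower by 2-fold or more, with a median of -2.53. Of the 6 inflammatory and stress genes 5 were lower by 2-fold or more (median -2.14), with the chemokine Ccl2 at 72.1 CPM against 523 (-2.86). Of 7 interferon-stimulated genes 5 were lower by 2-fold or more (median -1.90), with Isg15, a ubiquitin-like antiviral protein, at -1.91.

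Cell cycle arrest genes were divided. Cdkn1a, the p21 inhibitor and p53 target, was at 111 CPM against 631 (-2.51), and Mdm2, the ubiquitin ligase of p53, at 43.5 against 191 (-2.13). Cdkn2a, which encodes p16 and Arf, was at 1277 CPM against 999 (0.35) and found in 213 of the 220 cells. Of the 7 genes of that list 5 were lower by 2-fold or more and 0 were higher. Over all 2834 genes these shares were 43.6% and 0.741%. Among 16 cell cycle genes only the ubiquitin-conjugating enzyme Ube2c passed 50 CPM, at 77.6 against 88.3 (-0.19, interval -0.44 to 0.05), and this direction turned to positive against the neighbours (0.72) and among cells of 5000 to 10000 UMIs (1.57).

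A small number of genes was higher in the cells without Col1a1: 21 of 2834 (0.741%) by 2-fold or more. The highest was Hmga1, an architectural chromatin protein abundant in embryonic cells (chromosome 17, 27556497 to 27563674), with 472 UMIs in 159 of the 220 cells. It was at 260 CPM against 33.2, a log2 ratio of 2.97 (2.82 to 3.10), and its share of cells with a UMI was 60.0% against 14.3% thinned and 72.3% against 41.6% at full depth. No cell of the 220 held more than 14 UMIs of it, so the sum was spread over many cells. Hmga1b, a near-identical copy, had 8 UMIs, so the division of reads between the copies is uncertain. Hmga1 was also higher in low-gene cells that do hold Col1a1. It stood at 131 CPM in the neighbours of 1653 thinned genes or fewer, at 78.1 in the other neighbours, and at 56.2 and 33.0 in the corresponding comparison cells.

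Several small calcium-binding and sugar-binding proteins followed. All 8 S100 and galectin genes past 50 CPM were higher, as were 23.6% of all genes at any ratio, and 5 were so by 2-fold or more, with a median of 1.16. Lgals3, a galectin of the cytosol and cell surface, was at 475 CPM against 158 (1.59, interval 1.49 to 1.69). S100a11 was at 5421 CPM against 2283 (1.25) and found in all 220 cells. S100a4, a marker also used for fibroblasts, was at 1122 CPM against 474 (1.24). S100a6 had a thinned median of 165.5 UMIs against 72, and Lgals1 of 73 against 33. S100a6 and Lgals1 were found in every cell without Col1a1, and S100a6 alone supplied 65580 of their 1817220 UMIs.

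The other genes among the 10 highest were carried by the whole set or by few cells. Taldo1, an enzyme of the pentose phosphate pathway, stood at 1.29 with UMIs in 191 cells, and the actin-capping protein Capg at 1.21 with UMIs in 174 cells. Smg6, a nuclease of nonsense-mediated decay, stood at 1.35 and Uchl1, a deubiquitinase, at 1.26, with UMIs in 60 and 50 cells. Acta1, the skeletal muscle actin, stood at 1.38, with UMIs in 57 cells and 97 of its 429 UMIs in a single cell. Igfbp4, an insulin-like growth factor binding protein, stood at 1.29 with 42 of its 152 UMIs in a single cell. The values of Acta1 and Igfbp4 thus rest in part on single cells, unlike those of Hmga1 and Taldo1.

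Genes of energy metabolism and translation were higher by less. Of 10 genes in the glycolysis list 9 were higher (median 0.74), and the member higher by 2-fold or more was Taldo1 of the pentose phosphate pathway, already named. Gapdh, a central enzyme of glycolysis, was at 2978 CPM against 1567 (0.93). Of 16 nuclear-encoded oxidative phosphorylation genes 13 were higher (median 0.56), and all 11 mitochondrially encoded protein genes were lower (median -0.50), where 76.4% of all genes were lower at any ratio and the median of all genes was -0.76. Of 81 ribosomal protein genes 79 were higher (median 0.65). The 14 endoplasmic reticulum chaperone and translocon genes, which fold secreted proteins, had a median of -0.96, and the chaperone Hspa5 was at 102 CPM against 487 (-2.25). The lysosome list had a median of -0.20 and was at 0.07 when mitochondrial and ribosomal protein genes were left out of the total. That scaling shifts all ratios by 0.23 and brings further genes past 50 CPM, so this change of sign is not particular to the list.

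Gene length differed between the 3 classes. Annotated exons summed to a median of 5645 bases in genes lower by 2-fold or more, 2952 bases in those within 2-fold and 1544 bases in the 21 higher genes, against 3740 for all genes with a length. Expression also differed between the classes. The median level in the higher set was 82.9 CPM for the lower genes, 141 for those within 2-fold and 531 for the higher genes. The part of gene length and level in these ratios was not tested.

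The 220 cells were not uniform. Clustered without Col1a1 and without any gene of the identity lists, they fell into 4 groups, numbered here because none met an identity. Genes that lead a group are given to describe it, since the clustering used their values or those of genes that vary with them. Group 1 had 57 cells (25.9%), group 2 had 97 (44.1%), group 3 had 53 (24.1%) and group 4 had 13 (5.91%). At another resolution the number of groups was 2 or 8, so the borders between the groups, group 4 included, depend on that choice.

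Group 1 held all 38 cells with less than 1% mitochondrial UMIs, and its median was 0.631% (0.0349 to 4.49%). Lysosome genes took 0.0500% of its UMIs against 0.617% in the comparison cells, and endoplasmic reticulum chaperones 0.115% against 0.569%, while nuclear-encoded oxidative phosphorylation genes took 1.24% against 0.855%. Collagens took 0.00943% against 0.491%. The cathepsin Ctsl, a lysosomal protease, was at 72.5 CPM and Sparc at 135 CPM. Its leading genes were the translation factor Denr, the actin nucleator subunit Actr3, Ube2c, the splicing protein Zcrb1 and the histone H2afz, and cell cycle genes took 0.0749% of its UMIs against 0.0461% in the comparison cells. Acta2, left out of the clustering, stood at 10010 CPM and Hmga1 at 375 CPM, the highest of the 4 groups for Hmga1.

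Group 2 differed from group 1 in lysosome and endoplasmic reticulum genes. Its mitochondrial median was 5.62%, and lysosome genes took 1.02% of its UMIs and endoplasmic reticulum chaperones 0.503%, the latter close to the 0.569% of the comparison cells. It was led by the secreted protease Htra1, the membrane glycoprotein Pdpn, the transporter partner Emb and the disulfide isomerase Pdia6. Sparc was at 1393 CPM, Ctsl at 3362 CPM and Thy1 at 923 CPM, against 96.7 CPM of Thy1 in group 1. Collagens nevertheless took 0.0498% of its UMIs, an order of magnitude under the comparison cells. The summed endoplasmic reticulum and lysosome lists, near or above the comparison level, thus stood beside low collagen. Other secretory lists were lower in group 2 than in the comparison cells. Collagen processing genes took 0.272% against 0.402%, and other fibroblast matrix genes 0.505% against 1.18%.

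Group 3 had a mitochondrial median of 3.90% and was led by the contractile genes Acta1, Palld, Cnn1, Csrp1 and Actg2, with Acta2 at 12746 CPM and Tagln at 10752 CPM. Acta1, Acta2, Cnn1, Actg2 and Tagln were not used in the clustering. Acta1 was present in 16 of its 53 cells, with 97 of 258 UMIs in a single cell. Contractile genes took 3.46% of its UMIs, against 2.77% in group 1, 1.22% in group 2 and 1.70% in the comparison cells. Collagens took 0.0162% and lysosome genes 0.162%. It was given no cell type name, because Acta2 stood at 6305 CPM in the comparison cells as well and the counting smooth muscle markers had 1 UMI in all 220 cells.

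**Figure D4:**
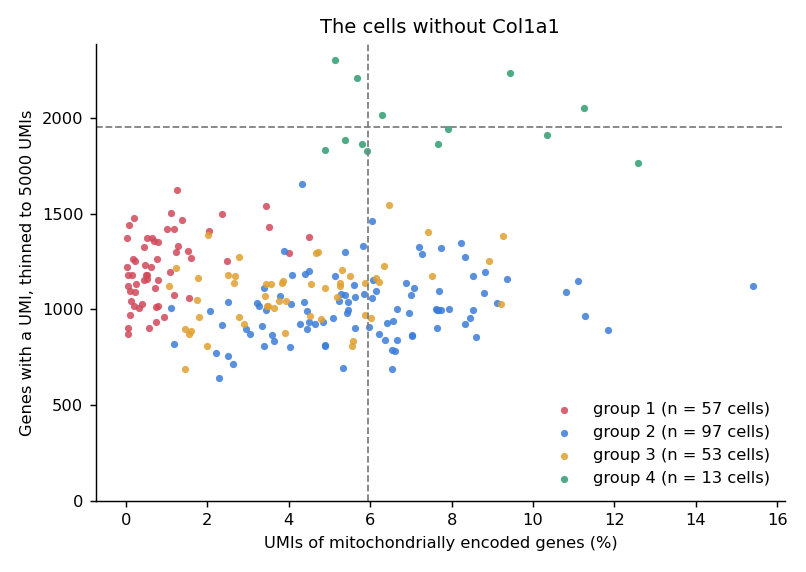
Genes with a UMI after thinning to 5000 UMIs (y axis) against the share of mitochondrial UMIs (x axis, percent) for each of the 220 cells without Col1a1, coloured by group; dashed lines give the medians of the comparison cells. Group 1 (red) lies at the left, with a median of 0.631%, and the 13 cells of group 4 (green) lie from 1766 to 2303 genes, above all cells of groups 1 to 3.

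Group 4 differed from the others in gene number and in many genes. Its 13 cells had 1766 to 2303 thinned genes, with a median of 1909 near the 1954 of the comparison cells, and the other groups reached at most 1653. Ribosomal protein genes took a median of 23.1% of its UMIs, against 34.9% in group 1, 36.4% in group 2 and 30.6% in group 3. Its 13 cells formed a cluster of their own at resolution 1.0 and with 10 neighbours, and were part of a cluster of 110 cells at resolution 0.3. They held 114 of the 151 immediate-early UMIs of the 220 cells, and these genes took 0.0901% of the group's UMIs, against 0.112% in the comparison cells and 0.00145 to 0.00323% in groups 1 to 3. Without group 4 the median ratio of the immediate-early list was -6.03 in place of -4.23.

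The arrest genes of p53 were carried by group 4 as well. Cdkn1a was at 1169 CPM and Mdm2 at 498 CPM in group 4, above the 631 and 191 CPM of the comparison cells. In groups 1 to 3 Cdkn1a was between 21.3 and 60.4 CPM. Acta2 was at 198 CPM, against 3761 to 12746 CPM in the other groups. Lysosome genes took 1.34% of the UMIs, with Ctsl at 5064 CPM, and S100 and galectin genes 1.83%, under the 2.71% of the comparison cells. Collagens took 0.122%, the highest of the 4 groups and below the comparison cells. The growth arrest gene Gas1 led the group, with UMIs in 10 of its 13 cells, followed by AC149090.1, Igfbp3, Arl4c and Auts2. Of 83 Igfbp3 UMIs 65 lay in a single cell, and of 209 UMIs of the matrix calcification inhibitor Mgp 107 did. The group contained no UMI of Pecam1, Ptprc or Epcam, and no cell of it met any identity.

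**Figure D5:**
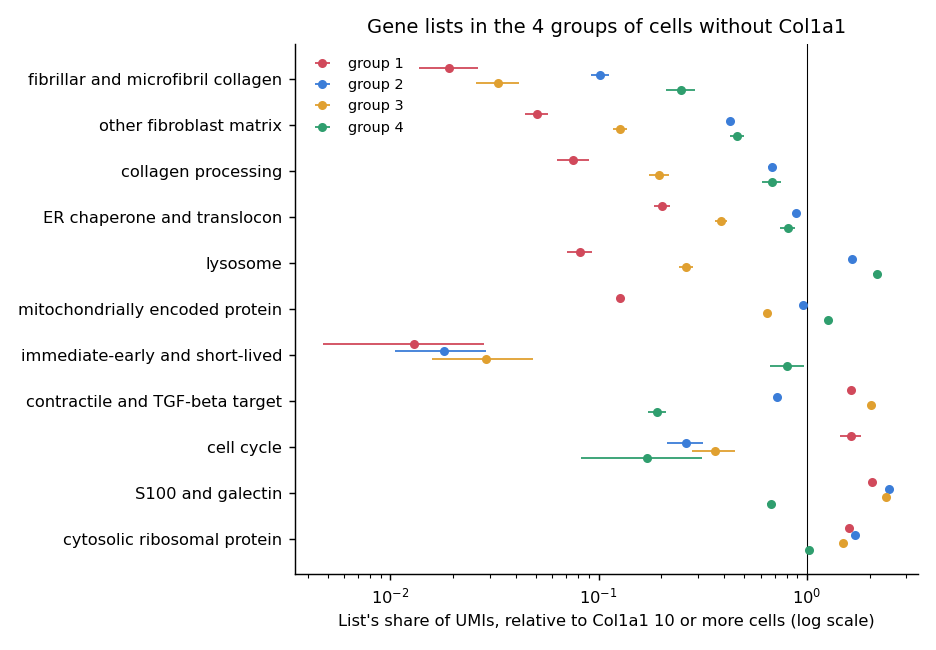
Share of UMIs taken by 11 gene lists in each of the 4 groups of cells without Col1a1, divided by the share in the comparison cells (x axis, log scale; 1 marks the comparison cells), with exact 95% intervals of the group's share as lines. Groups 1 and 3 lie far left for lysosome and matrix genes, groups 1 to 3 lie far left for immediate-early genes, and group 4 lies near 1 for them.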

How the data were processed

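UMI counts per gene and barcode were used as the authors deposited them; Cell Ranger 4.0, Seurat 3.2.3 and the build GRCm38.p6 are named per the submitters' processing notes, with no order or role. The MEF matrix held 6113 barcodes, none under 503 UMIs; how these were picked is not given in the sources used here. Of them 339 had fewer than 5000 UMIs and 13 more exceeded 20% mitochondrial UMIs. Gene and barcode names are the deposited text columns. Positions and exon lengths came from GENCODE M21 for GRCm38, which holds 26013 of 26124 listed gene IDs.

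UMIs were summed over the cells of a set and scaled to CPM. Ratios have exact conditional 95% intervals, a gene at 0 was put at 3 counts, and shares have exact binomial (Clopper-Pearson) intervals. For shares and gene numbers each cell was thinned once to 5000 UMIs, and no cell was shallower. Doublets were scored with Scrublet, whose own threshold marked 2 MEF cells and so did not work; none was removed, and leaving out the top 4.8% of scores was an alternative. The 220 cells were scaled to 10000, log-transformed and clustered on 2000 variable genes (20 components, 15 neighbours, Leiden resolution 0.5; scanpy 1.11.5).

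The members and lists were chosen with earlier results of these data known. The S100 and galectin, glycolysis, sterol synthesis, lysosome, immediate-early, endoplasmic reticulum, oxidative phosphorylation, mitochondrially encoded and ribosomal protein lists were written after values were seen. Named genes were the 10 with the largest ratio in each direction past 50 CPM, the 3 lineage genes and members of the lists. Scripts were tested on simulated data.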

Additional observations from a re-analysis of the deposited data

How the results depend on the processing

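No paired analysis was possible because each condition had 1 library. The number of cells without Col1a1 was 266 with a minimum of 2000 UMIs, 46 with a minimum of 10000 and 323 when Col1a1 was read after thinning to 5000 UMIs. The count of cells with an identity moved from 0 to 104 when markers common in the comparison cells were counted, all by the smooth muscle list, and was 0 under the 10 other alternatives. Genes lower and higher by 2-fold or more numbered 4937 and 40 with a minimum of 10 CPM, and 606 and 1 at 4-fold. The higher genes were 68 with a total that left out mitochondrial and ribosomal protein genes, and 69 among cells of 5000 to 10000 UMIs, in place of 21. The middle value of the list medians was -1.31 against the cells with 1 to 9 Col1a1 UMIs, in place of -1.89. The cells fell into 2 groups at resolution 0.3 and 8 at 1.0.

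The contractile list changed sign, to 0.013 when the CPM of single cells were averaged, 0.060 with the reduced total, 1.44 against the cells with 1 to 9 UMIs, 0.20 among cells of 5000 to 10000 UMIs, 0.00047 without group 4 and 0.0076 for genes with 10 UMIs in both sets. Cell cycle turned to 0.17, 0.72 and 1.57 with the mean CPM, against 1 to 9 UMIs and at 5000 to 10000 UMIs, and lysosome to 0.069 with the reduced total; the cause was not tested. The settings of 5000 to 10000 UMIs, without group 4 and with 10 neighbours were chosen after seeing the data. With 1 library, no value has a replicate check. Free RNA was not removed.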
